A study of Homo sapiens with 6 samples.

Results

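The genes described here are 41 enzymes of central carbon metabolism in CHL-1 cells, a human melanoma line kept in culture. They are 17 enzymes of glycolysis and lactate formation, 6 of the pentose phosphate pathway, 4 subunits of the pyruvate dehydrogenase complex, and 14 enzymes of the TCA cycle with its isocitrate dehydrogenases. They were chosen by name, as members of these pathways, out of 11227 genes with a named row in the 3 deposited tables. Where a gene had several transcript rows, the row with the most depth over the tables was used. Ribosome profiling sequences the messenger fragments that ribosomes shield from nuclease, so depth on a gene reflects how many ribosomes sit on its messengers. The series has 6 libraries in 3 groups of 2: untreated parental CHL-1 cells, CHL-1 cells in which CRISPR was used against the small nucleolar RNAs SNORD50A/B (the edited line), and CHL-1 cells given 10 mM AZC, which resembles proline, together with 20 µM of the proteasome inhibitor MG132 over 20 minutes (treated cells). Of the 2 libraries of a group, 1 is labelled as having ribosomal RNA removed. Whether the edited line is a single clone was not given in the sources used here, and the edit was not checked from these footprints.

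Glycolysis splits glucose into pyruvate in the cytosol, and lactate dehydrogenase turns pyruvate into lactate and back. The pentose phosphate pathway branches off after glucose is phosphorylated and yields NADPH and the ribose of nucleotides. In mitochondria the pyruvate dehydrogenase complex makes acetyl-CoA from pyruvate, and the TCA cycle oxidises it to supply electrons to respiration. Many tumour cells, melanoma cells among them, keep high glycolytic flux in the presence of oxygen.

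Each group is 1 table, so no spread between replicates could be computed, no difference below carries a test, and each one is a difference between 2 tables. More messenger and more ribosomes per messenger cannot be told apart from footprints alone. The tables held a depth of 473.7 (parental), 586.5 (edited) and 367.3 (treated) in units of 1000000, of which 85.6%, 84.8% and 78.1% lay in coding bins. Levels are given as normalised depth, the depth over all bins of a row per 1000000 of the table's depth. Among markers of the labelled cell type, SOX10 stood at 395.7, 352.5 and 322.5 in the parental, edited and treated tables. S100A1 stood at 69.1, 83.7 and 98.6, and S100B at 29.8, 32.5 and 41.4, so these markers did not share one direction. DCT was at 4.14, 15.7 and 7.55, MITF at 5.97, 9.46 and 3.94, and MLANA at 2.04 or below. PMEL was at 2.14 and 2.48 in the parental and treated tables and had no row in the edited one. TYR and TYRP1 had no row. Of 8 markers of other cell types 3 had a row in any table, and they summed to between 13.5 and 20.9. Among them KRT10 at 11.6 and DES at 9.29 lay above DCT and MITF in the parental table. The part of these differences in the results below was not tested.

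The rows used for the 41 enzymes, a single row per gene, held 1.37% of the depth of the parental table, 1.42% of the edited table and 1.26% of the treated table. Glycolysis made up most of this, with 1.15%, 1.19% and 1.06%. The 14 TCA cycle enzymes held 0.119%, 0.121% and 0.111%, and the 6 pentose phosphate enzymes 0.0807%, 0.0831% and 0.0738%. The 4 pyruvate dehydrogenase subunits held 0.0200%, 0.0258% and 0.0191%. The depth of a table counts each transcript row, while the shares count only the row used of each enzyme. The enzymes have 83 rows in all, so their full share of a table is larger than given here. The shares describe the tables and not the cells' whole footprint pool. Pyruvate dehydrogenase was the group whose share differed most between tables, and its share was highest in the edited line.

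All 41 enzymes passed the minimum level (the lower quartile of row sums) in the parental and treated tables, and 40 did in the edited table, where ALDOC, the brain-type aldolase, fell short. LDHB, the heart-type lactate dehydrogenase subunit, stood at 3369, 3545 and 3330 in the parental, edited and treated tables. GAPDH, which oxidises glyceraldehyde 3-phosphate, stood at 2533, 2711 and 2179. ENO1, the common enolase, stood at 1770, 1851 and 1622. For these abundant rows the 3 tables lay within a narrow range, but another ENO1 row stood at 1481, 1509 and 1087. PKM, a pyruvate kinase, was at 920.9, 875.0 and 880.1, and PGK1, phosphoglycerate kinase, at 456.3, 446.7 and 450.6. LDHA, the muscle-type subunit, was at 688.1, 789.7 and 526.6, and ALDOA, the main aldolase, at 639.1, 591.0 and 465.4. Both LDHA and ALDOA were lowest in the treated cells.

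**Figure D1:**
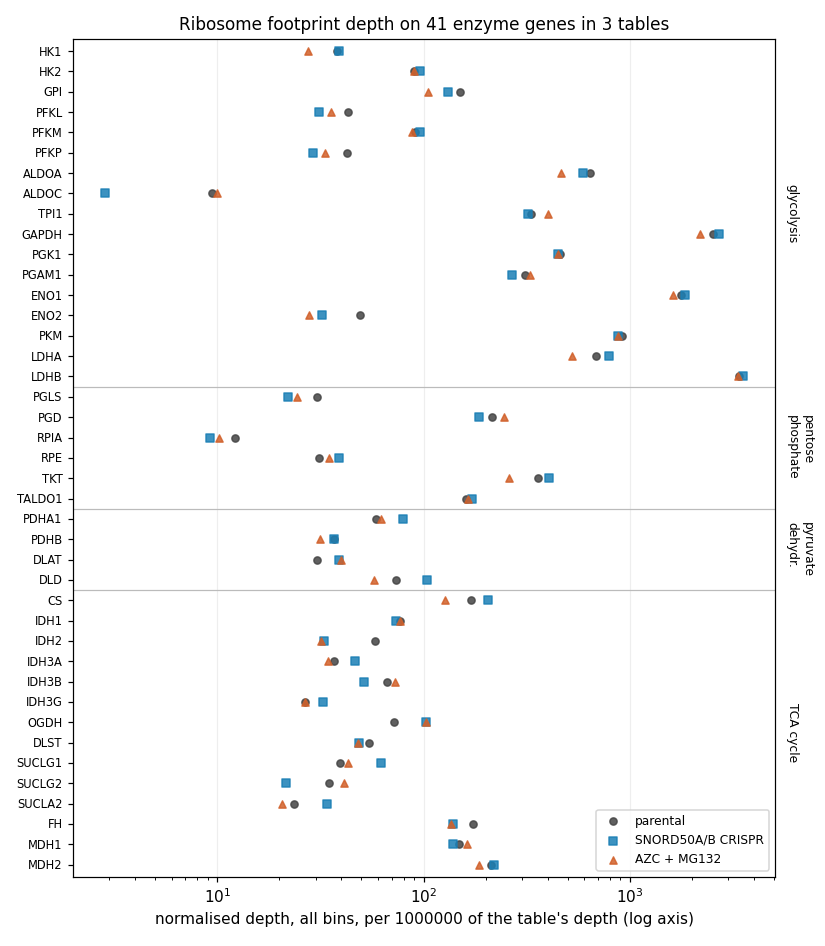
Normalised depth of each of the 41 enzymes in the parental (circles), SNORD50A/B CRISPR (squares) and AZC + MG132 (triangles) tables on a log axis, grouped by pathway, 1 value per table. The symbols of a gene mostly overlap or lie close, while ALDOC in the CRISPR table, at 2.87, lies far to the left of its parental value of 9.43.

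A long coding sequence collects more depth, so genes can be compared with each other only per length. Coding lengths could be recovered for 14 of the 41 rows, and the values in this paragraph are coding depth per kilobase, in the order parental, edited and treated. In glycolysis TPI1, triosephosphate isomerase (750 bases), stood at 333.4, 315.1 and 357.2. ENO2 was at 37.6, 24.7 and 21.2, from reads that ENO1 may share. In the pentose phosphate pathway PGLS, the lactonase of the oxidative branch, was at 32.4, 25.4 and 24.03. RPE, an epimerase of the non-oxidative branch, was at 19.9, 24.4 and 20.2, and RPIA, the isomerase beside it, at 12.3, 9.61 and 9.84. PDHB, of pyruvate dehydrogenase, was at 27.8, 27.1 and 25.02. Among the TCA rows with a length the highest parental value was that of IDH1, the cytosolic NADP-dependent isocitrate dehydrogenase, at 54.3, 50.9 and 50.9. Its mitochondrial counterpart IDH2 was at 42.1, 23.7 and 22.4. IDH2 lay below IDH1 in each table, by the smallest margin in parental cells.

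Treated cells were set against parental cells to see how ribosome occupancy of these messengers differed after a short exposure to an amino acid analog and a proteasome inhibitor. Depth on most of the enzymes differed little. Over the 41 members the median log2 ratio was -0.08, beside -0.05 over all 7279 genes compared, and the median size of the log2 ratio was 0.20, beside 0.27. None of the 41 was 1.5-fold or more higher in the row used, a limit of size that 6.75% of all genes passed. Lower by 1.5-fold or more were 2 members, ENO2 and IDH2, beside 11.2% of all genes. Past 2-fold there were 0 members, beside 0.866% of all genes higher and 2.39% lower.

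IDH2, which makes NADPH in mitochondria, stood at 58.3 in the parental, 32.8 in the edited and 31.9 in the treated table. The treated value was 1.82-fold below parental, a log2 ratio of -0.87. Ratios were also taken from stretches of the coding sequence, each scaled to the depth of all rows in that stretch, which removes the 5′ gradient common to the table. On this scale 4 equal stretches of IDH2 gave log2 ratios between -0.93 and -0.50, while its own 5′ share went from 0.36 to 0.63, so the lower depth was not even along the messenger. ENO2, the neuron-type enolase, stood at 49.04, 32.2 and 27.8, a log2 ratio of -0.82 in treated cells, but most of its depth lies in a short stretch described below. With the 10 highest coding bins of each gene left out its ratio was -0.43.

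In glycolysis 14 of 17 enzymes lay below 0 and 3 above, with a median of -0.13, beside 4025 of all 7279 genes below 0. The count depends on the scaling, since several of the 14 lay close to 0. Scaled to the median log2 ratio of all genes, HK2, PFKM, PGK1 and LDHB lay above 0, at 0.052, 0.003, 0.037 and 0.038. The ratios below are without that scaling. GPI, which converts glucose 6-phosphate to fructose 6-phosphate, was at -0.52, with 149.8 in parental and 104.6 in treated cells. HK1, a hexokinase, was at -0.47 and ALDOA at -0.46. LDHA was at -0.39 and GAPDH at -0.22, while the more abundant partner LDHB was at -0.02. TPI1 was the highest of the group at 0.27, with 331.6 in parental and 399.7 in treated cells. This value rests on the transcript row used: another TPI1 row, NM_001258026, was at -0.11. The phosphofructokinases, which commit sugar to glycolysis, were at -0.05 for the muscle type PFKM, -0.27 for the liver type PFKL and -0.36 for the platelet type PFKP. The others lay near 0: ENO1 was at -0.13, PKM at -0.07, PGK1 at -0.02, PGAM1 at 0.07 and ALDOC at 0.08, and HK2 stood at 89.9 in parental and 89.8 in treated cells. The ENO1 value also rests on the row used, since another ENO1 row was at -0.45.

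Among the pentose phosphate enzymes 3 lay above and 3 below 0. TKT, transketolase, went from 359.1 to 258.6, a log2 ratio of -0.47, with ratios between -0.48 and -0.28 in 4 coding stretches, each relative to all rows in that stretch. Its 5′ share went from 0.81 to 1.605. PGD, the NADPH-forming 6-phosphogluconate dehydrogenase, was at 0.20 and TALDO1, transaldolase, at 0.03. PGLS was at -0.32, RPIA at -0.25 and RPE at 0.17. The pyruvate dehydrogenase subunits were split as well. DLAT, the acetyltransferase core, was at 0.39, and DLD, the dihydrolipoamide dehydrogenase that this complex shares with the oxoglutarate dehydrogenase complex, was at -0.36. The E1 subunits PDHA1 and PDHB were at 0.08 and -0.23. The treated levels were 39.6 for DLAT, 57.3 for DLD, 62.2 for PDHA1 and 31.5 for PDHB.

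In the TCA group 5 enzymes lay above and 9 below 0, with a median of -0.04. OGDH, the first subunit of the oxoglutarate dehydrogenase complex, was the highest of all 41, at 72.2 in parental and 102.5 in treated cells, a log2 ratio of 0.51. Relative to all rows in the same stretch, its 4 coding stretches gave ratios between 0.54 and 0.65, while its own 5′ share went from 1.53 to 2.53. With coding bins alone its ratio was 0.60, past 1.5-fold. Another OGDH row, at 31.8 in parental and 51.3 in treated cells, was at 0.69, also past 1.5-fold, and a further row was at 0.51. CS, citrate synthase, was at -0.41 and FH, fumarase, at -0.36. SUCLG2, the GTP-forming subunit of succinyl-CoA ligase, was at 0.25 and SUCLG1, the subunit common to both forms of that ligase, at 0.13, while the ATP-forming subunit SUCLA2 was at -0.18. DLST, a partner of OGDH in its complex, was at -0.18. The NAD-dependent isocitrate dehydrogenase subunits IDH3A and IDH3B were at -0.08 and 0.12, and IDH3G stood at 26.6 in both tables. MDH1, the cytosolic malate dehydrogenase, was at 0.13 and its mitochondrial counterpart MDH2 at -0.20.

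**Figure D2:**
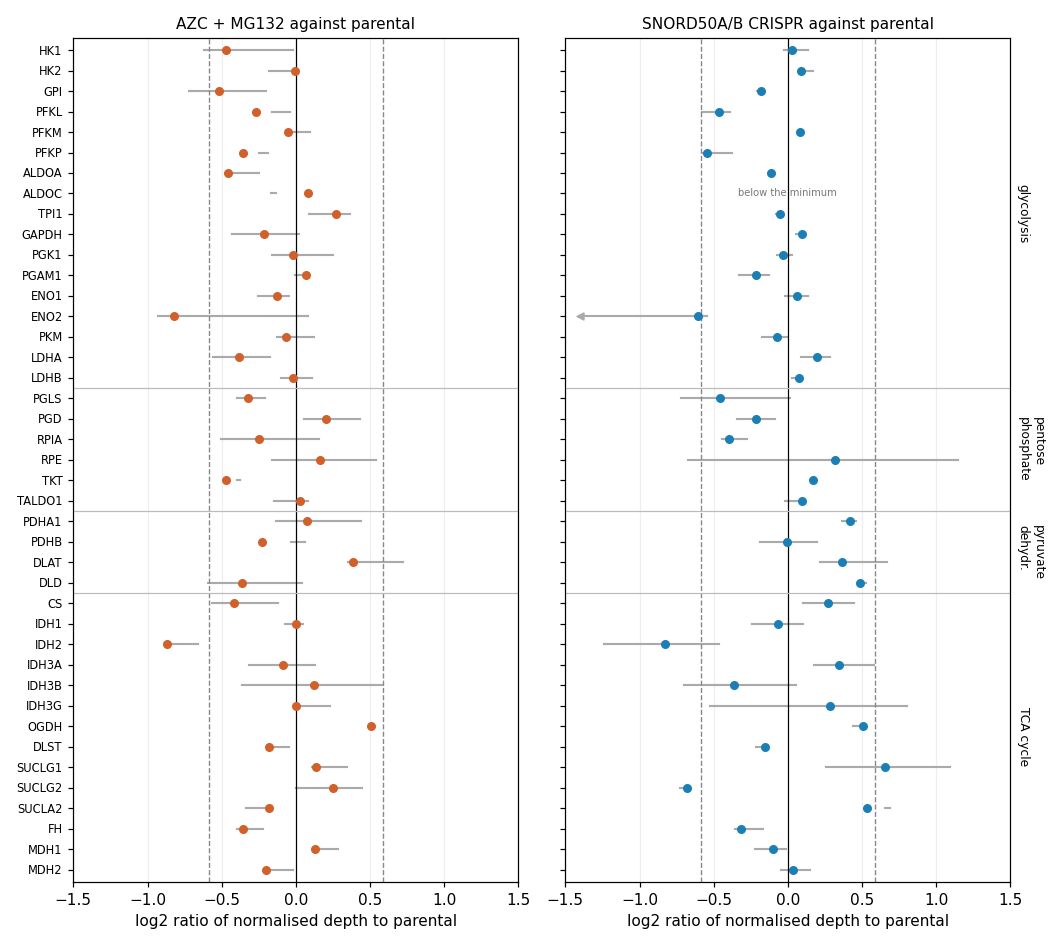
Log2 ratio of normalised depth to parental for each enzyme, in AZC + MG132 cells (left) and in the SNORD50A/B CRISPR line (right). Points use all bins, grey lines join the ratios of the first and the last 100 coding bins (each scaled to the depth of all rows in those bins, so a point can lie off its line), dashed lines mark 1.5-fold and the arrow marks a value off the axis. IDH2 lies left of the dashed line in both panels, and SUCLG1 at 0.66 is the point past 1.5-fold on the right side of either panel.

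The edited line was compared with parental cells because the study asked where ribosomes bind when SNORD50A/B is disrupted. The median log2 ratio over the 40 enzymes compared was 0.01, beside 0.00 over all 7542 genes, with 20 enzymes above and 20 below 0. Higher by 1.5-fold or more was 1 member, SUCLG1, beside 7.17% of all genes. Lower by 1.5-fold or more were 3, IDH2, SUCLG2 and ENO2, beside 7.62%. Past 2-fold there were 0, beside 1.1% of all genes higher and 1.3% lower. The first and the last 100 coding bins gave ratios on the same side of 0 for 29 of the 40 members, beside 60.9% of all genes. In the treated cells this held for 24 of 41, beside 62.3%.

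The TCA enzymes were the most spread of the larger groups in the edited line. Their median size of log2 ratio was 0.33, beside 0.09 for glycolysis and 0.24 over all genes. SUCLG1 stood at 39.4 in the parental, 61.99 in the edited and 43.2 in the treated table, a log2 ratio of 0.66 for the edited line. The first 100 coding bins of SUCLG1 gave 0.26 and the last 100 gave 1.09. SUCLG2 stood at 34.6, 21.6 and 41.2, a log2 ratio of -0.68, with -0.66 and -0.72 in the first and last 100 coding bins. SUCLA2, the ATP-forming counterpart of SUCLG2, stood at 23.5, 33.9 and 20.7, a log2 ratio of 0.53, with 0.65 and 0.69. Thus the beta subunits that decide whether succinyl-CoA ligase makes GTP or ATP lay on opposite sides of parental. With coding bins alone SUCLA2 was at 0.67, past 1.5-fold.

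IDH2 was 1.78-fold lower in the edited line, a log2 ratio of -0.83, and 2.94% of all genes had a lower ratio. The first 100 coding bins gave -1.24 and the last 100 gave -0.47. The edited and treated levels of IDH2, 32.8 and 31.9, lay close together, both far from the parental 58.3. Since both ratios share the parental table, they are not independent of each other. The cytosolic IDH1 was at -0.06 and stood at 76.95, 73.7 and 76.9 in the parental, edited and treated tables.

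The NAD-dependent isocitrate dehydrogenase is a mitochondrial complex of alpha, beta and gamma subunits. Its catalytic alpha subunit IDH3A was at 0.35 in the edited line, IDH3G at 0.29 and IDH3B at -0.37. Per kilobase of coding sequence IDH3A stood at 25.6, 32.99 and 22.3, IDH3B at 46.2, 35.8 and 45.6, and IDH3G at 19.02, 24.2 and 19.5 in the parental, edited and treated tables. The beta subunit had the highest depth per kilobase in each table, and the subunits lay closest together in the edited line. The IDH3G and IDH3B ratios did not hold along the messenger: the first 100 coding bins gave 0.80 and 0.06, the last 100 gave -0.53 and -0.70. IDH3A was above 0 in both, at 0.58 and 0.17.

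Among the subunits of the pyruvate and oxoglutarate dehydrogenase complexes, DLD was at 103.4 against 73.7 in parental cells, a log2 ratio of 0.49, and 4 coding stretches, each relative to all rows there, gave between 0.35 and 0.69. PDHA1, the E1 alpha subunit of pyruvate dehydrogenase, was at 0.42, with 79.04 against 59.03, and DLAT at 0.36, with 39.03 against 30.4. PDHB, the E1 beta subunit, was level at -0.01, with 36.7 against 36.9. The pyruvate dehydrogenase subunits had a median of 0.39 over 4 genes, and 0 of them passed 1.5-fold. PDHX, a further component of the complex that is not among the 41, was at 0.07. OGDH was at 0.51, with 102.7 against 72.2, but its 4 coding stretches, scaled in the same way, gave between -0.03 and 0.88. Another OGDH row was at 0.30. DLST, the succinyltransferase that works with OGDH, was at -0.15, with 54.4, 48.9 and 48.1 in the parental, edited and treated tables.

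The remaining TCA enzymes of the edited line lay nearer to parental. CS was at 0.27 and FH at -0.32. MDH1 was at -0.10, with 149.1, 139.1 and 163.3 in the parental, edited and treated tables. MDH2 was at 0.04, with 212.7, 218.3 and 185.02. In glycolysis the phosphofructokinases differed from each other: PFKP was at -0.55 (42.7 to 29.3) and PFKL at -0.46 (42.8 to 31.1), while PFKM was at 0.08 (91.02 to 96.4). Their treated levels were 33.3, 35.5 and 87.8. As a share of the coding depth on the 3 genes, not corrected for length, PFKM held 49.4% in parental and 59.1% in edited cells. LDHA was at 0.20 and LDHB at 0.07. GAPDH at 0.10, ENO1 at 0.06, PGK1 at -0.03, TPI1 at -0.05 and PKM at -0.07 lay within 0.1 of 0. PGAM1, phosphoglycerate mutase, was at -0.22 and GPI at -0.18. HK1 was at 0.03, with 37.96, 38.8 and 27.4 in the parental, edited and treated tables, and HK2 at 0.09, with 95.9 in the edited one.

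In the pentose phosphate pathway of the edited line TKT was at 0.17 and TALDO1 at 0.10, while PGD was at -0.21. PGLS was at -0.46, from -0.72 in the first to 0.02 in the last 100 coding bins. RPIA was at -0.40, with ratios below 0 in both stretches. RPE was at 0.32, but its 2 stretches gave -0.68 and 1.15. These 3 enzymes had low depth, with levels of 38.8 or below in each table. The lower level of PGLS and the higher one of RPE thus held in 1 of the 2 stretches each.

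The position of ribosomes along the coding sequence was described by the 5′ share, the mean depth of the first 20 of 200 coding bins over the mean of all 200, where 1 means even depth. In the treated cells the share was higher than in parental cells for most enzymes. The 5′ shift, the log2 ratio of the 2 shares, could be computed for 38 members and had a median of 0.83, beside 0.60 over all genes. It was above 0 for 34 of the 38, beside 79.7% of all genes. With the minimum level set 4 times higher, which leaves out low rows, 28 of 31 members were above 0, beside 87.8% of all genes. The medians were then 0.84 and 0.65. Of the 38 members, the 4 below 0 were PFKL at -0.03, PFKP at -0.08, PDHB at -0.31 and ENO2 at -1.67. In the TCA group 14 of 14 were above 0.

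Among the abundant glycolytic rows the 5′ share of PGK1 was 0.95 in parental, 0.84 in edited and 2.10 in treated cells. That of PKM was 1.19, 1.42 and 2.18, of LDHB 1.35, 1.73 and 2.29, of LDHA 1.15, 1.73 and 2.18, and of ENO1 1.03, 1.12 and 1.92. GAPDH had a smaller difference in the row used, with 0.89, 0.99 and 1.23. Another GAPDH row had 1.03, 1.04 and 1.59, and another ENO1 row 1.04, 1.22 and 1.44. The order of GAPDH and ENO1 thus depends on the rows used. The rows used for these abundant enzymes have depth in each of the 200 coding bins in the 3 tables. The largest shifts, 3.65 for RPIA and 3.64 for SUCLG1, belong to rows with few ribosomes at the start in parental cells. RPIA had depth in 4 of the first 20 bins there, and SUCLG1 in 13. IDH3B had a shift of 2.27, from a share of 0.31 to 1.51, and IDH3G of 1.47, from 1.08 to 2.99.

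**Figure D3:**
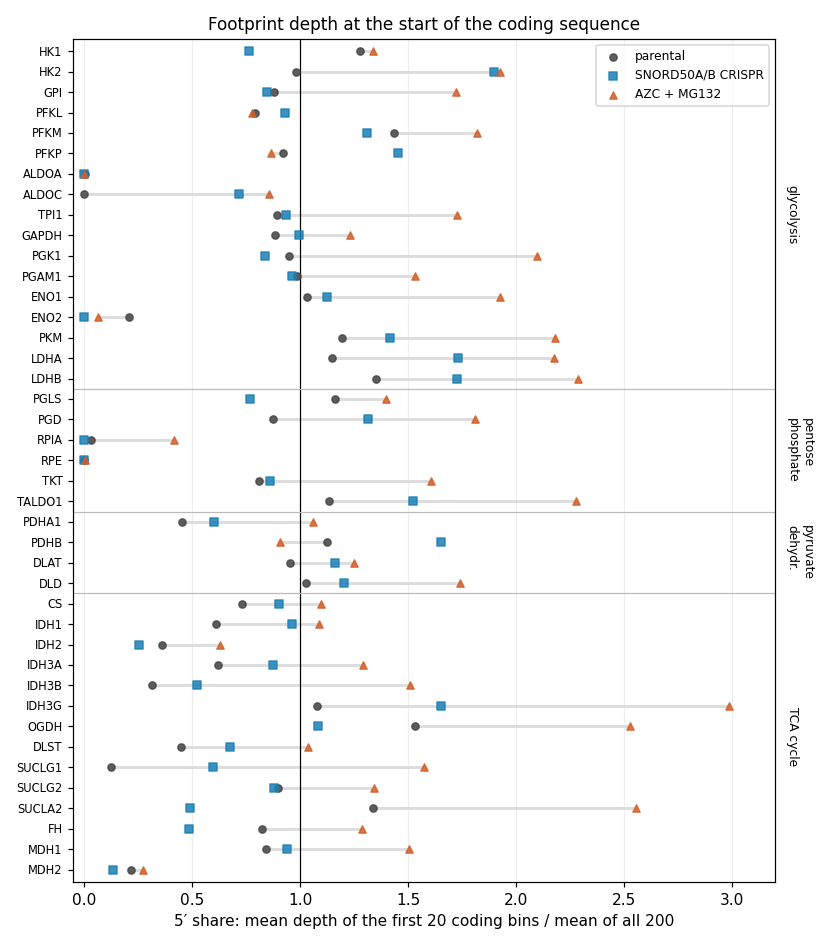
5′ share of each enzyme in the parental (circles), SNORD50A/B CRISPR (squares) and AZC + MG132 (triangles) tables. The vertical line marks even depth at 1, and a grey line joins the parental and treated values. Of the 38 enzymes with a 5′ shift, 34 lie farther right in treated cells.

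The gradient ran from the first to the ninth part of the coding sequence and broke in the last. With each gene's coding sequence cut into 10 equal parts and scaled to its own mean, the median over 40 enzymes in treated cells was 1.45 in the first part, 1.20 in the second, 0.79 in the sixth, 0.69 in the ninth and 0.99 in the tenth. The same medians over all genes were 1.42, 1.09, 0.83, 0.77 and 0.92. In parental cells the enzymes had 0.89 in the first, 0.91 in the ninth and 1.20 in the tenth part, and in the edited line 0.92, 0.98 and 1.1. The enzymes thus followed the course of all genes in the 3 tables, with a median slightly above that of all genes in the second part and slightly below it in the ninth of treated cells.

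**Figure D4:**
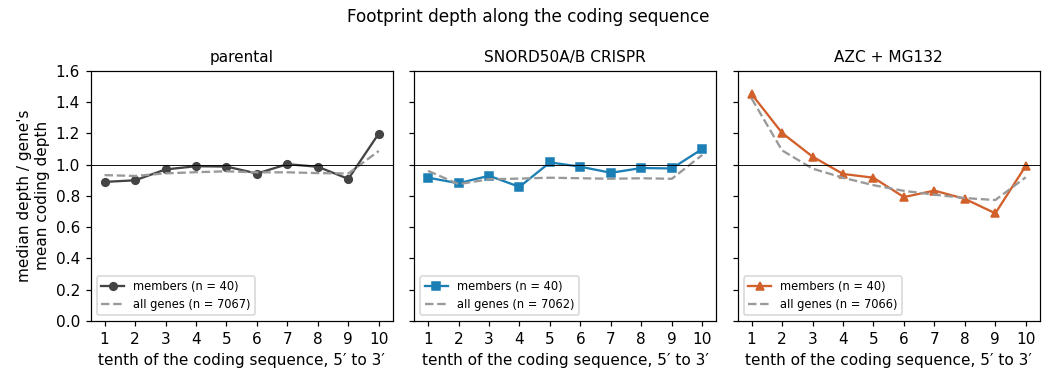
Median footprint depth in 10 equal parts of the coding sequence, scaled to each gene's mean coding depth, for 40 enzymes (solid) and all genes above the minimum (dashed) in the 3 tables. In treated cells both lines go from above 1.4 in the first part to below 0.8 in the ninth, and in the other tables they are near level up to the ninth part.

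In the edited line the median 5′ shift was 0.23 over 36 enzymes, beside 0.10 over all genes, and 24 of the 36 were above 0, beside 56% of all genes. With the first 4 bins left out it was 0.055, beside 0.071. HK2, the inducible hexokinase, had a 5′ share of 0.98 in parental and 1.90 in edited cells. SUCLG1 went from 0.13 to 0.60. SUCLA2 went the other way, from 1.34 to 0.49, with depth in 10 of its first 20 bins in the edited line and in 19 in parental cells. FH went from 0.82 to 0.49. MDH2 had low shares throughout, 0.22, 0.13 and 0.27 in the parental, edited and treated tables.

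Depth in the 5′ UTR bins lies before the annotated start codon of the row used. Whether it came from ribosomes sitting there, from ribosomes at the start codon or from another transcript of the gene was not tested. As a percent of coding depth, the median 5′ UTR depth of the enzymes was 2.59 in parental, 3.61 in edited and 7.23 in treated cells. The medians over all genes were higher, at 5.88, 6.39 and 11.6. In treated cells it was higher than in parental cells for 36 of 40 enzymes, beside 81.5% of all genes, and in the edited line for 27 of 40, beside 52.4%. HK2 stood at 13.7% in parental and 32.9% in treated cells. TPI1 went from 29.6% to 47.3%, PGAM1 from 25.6% to 39.4% and ENO1 from 3.93% to 14.2%. PDHB went the other way, from 19.9% to 14.9%. The RPE row used had more depth in its 5′ UTR bins than in its coding bins in each table (113.5%, 115.8% and 125.2%), and its first 20 coding bins were empty in parental and edited cells. In another RPE row, NM_006916, the percent was 17.9, 12.4 and 23.1.

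Several of these enzymes have rows or near copies that can share reads. The coding depth of ENO2 lay mostly in bins 72 to 80, which held 88.5% of it in the parental, 100% in the edited and 86.6% in the treated table. In these 9 bins ENO2 had 53.9%, 49.5% and 49.8% of the depth of ENO1. Outside them the normalised depth of ENO2 was 5.65, 0 and 3.69. The ENO2 ratios therefore describe a stretch whose reads cannot be assigned to 1 enolase from these tables, and they are uncertain. ALDOC had 63.1%, 40.3% and 47.3% of its coding depth in bins 94 to 100, where the ALDOA row NM_184041 had more. The ALDOA row used had little or no depth in its first 20 bins, so its 5′ share is undefined or close to 0. In NM_184041 the 5′ share was 1.05 in parental, 1.25 in edited and 1.89 in treated cells.

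PKM encodes the M1 and M2 forms of pyruvate kinase, which differ by an exon that is used in one or the other, and M2 is the form that dividing and tumour cells are known for. The row NM_002654, the M2 form, and the row NM_182471, the M1 form, differed in a run of 20 coding bins in the 3′ part of the coding sequence. There NM_002654 had a depth of 38231 in the parental, 39608 in the edited and 21086 in the treated table. NM_182471 held 1.71%, 1.44% and 1.35% of the depth on both rows in that stretch. Outside it the rows had nearly the same depth, with NM_182471 at 99.9% of NM_002654 in parental cells. In the stretch that tells them apart, footprints lay almost wholly on the M2 row in the 3 tables.

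**Figure D5:**
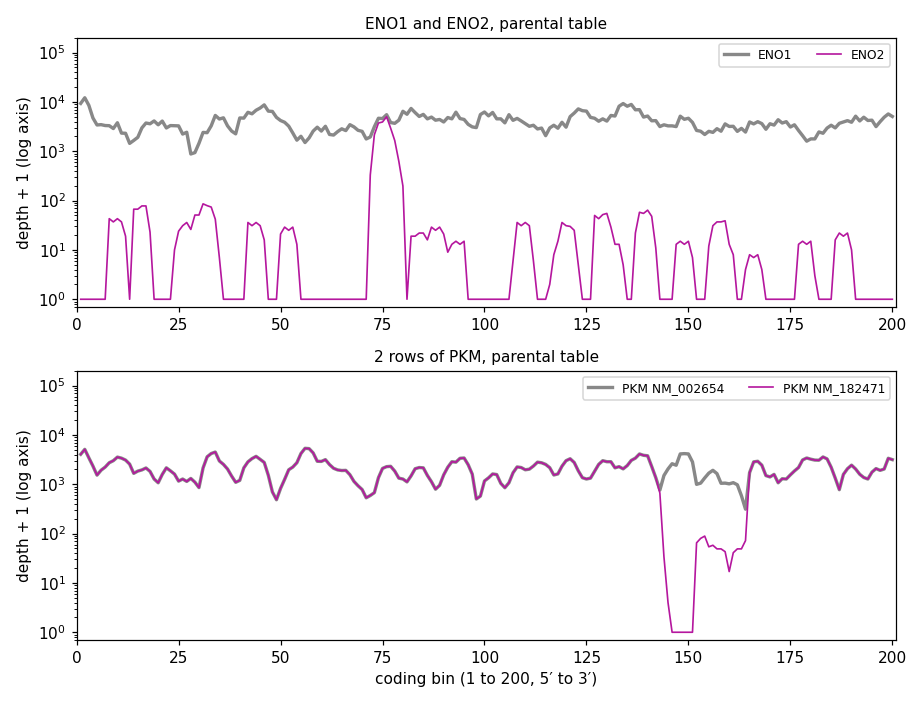
Footprint depth plus 1 per coding bin in the parental table on a log axis, for ENO1 and ENO2 (top) and for the PKM rows NM_002654 (M2) and NM_182471 (M1) (bottom). ENO2 comes near the depth of ENO1 only in the middle of bins 72 to 80, as in bin 76 (5003 beside 5515). At both ends of that stretch it lies well below ENO1. The M1 row drops below the M2 row over a run of 20 bins.

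Of 54 other genes of these pathways, which include transporters, regulators and enzymes that feed the TCA cycle, 41 had a row. In treated cells 34 were compared, with a median of -0.08. Past 1.5-fold were 0 higher and 3 lower, beside 6.75% and 11.2% of all genes. The lower ones were ME2, a mitochondrial malic enzyme, at -0.84, ENO3, the muscle enolase, at -0.70 and PGP, a phosphatase of glycolytic side products, at -0.68. In the edited line 35 were compared, with a median of -0.06. Past 1.5-fold were 2 higher and 2 lower, beside 7.17% and 7.62% of all genes. PCK2, the mitochondrial phosphoenolpyruvate carboxykinase, stood at 21.3 in the parental, 7.89 in the edited and 17.7 in the treated table. Its log2 ratio in the edited line was -1.44. It was the one gene of the list past 2-fold, beside 1.1% of all genes higher and 1.3% lower. PGP was at -0.61 there. MPC1, a subunit of the mitochondrial pyruvate carrier, was at 0.70 and SLC25A11, the oxoglutarate carrier, at 0.63. ENO3 may share reads with the other enolases.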

How the data were processed

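The authors deposited 3 tables, 1 per group, with 400 bins per RefSeq transcript on a log2 scale, read here from the values as log2(x + 1) with x the summed depth of the bin. Bins 1 to 100 were read as 5′ UTR, the next 200 as coding sequence and the last 100 as 3′ UTR. The submitters' processing notes name Bowtie2, TopHat2 and the genome build hg19. How 2 libraries entered 1 table was not given in the sources used here. Coding values also held the deposited value of the row above, which was subtracted: 100% of low coding bins were then whole numbers, against 5.68% before in the parental table. Row accessions were matched to symbols through RefSeq genes (GRCh38.p14), from which no coordinates were taken.

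Log2 ratios used a pseudocount of 0.5 on summed depth, and a gene was compared where both tables exceeded their lower quartile of row sums. Limits of 1.5-fold and 2-fold are sizes, not tests. Since depth is summed over bases and not over reads, it gives no counting interval. Coding lengths were to come from protein sequences, and were taken from the widths of the bins, where these settled them (in simulated rows 32 of 300 were settled, 32 of them right). The proline content of the proteins was not analysed here. Simulated tables (AZC + MG132 against parental) were drawn with no spread between libraries. In them 100% of the compared genes with folds of 0.25, 0.5, 2 and 4 passed 1.5-fold. With a fold of 0.25, 29 genes were compared, beside 50 with a fold of 4. Of 7638 unchanged genes 1 passed, which gives no error rate for the authors' tables, where that spread is unknown. The enzymes and gene lists were chosen with earlier results of these data known. Values in every table are given for enzymes past 1.5-fold, the 2 highest per coding base of each group where lengths were settled, and the paralog and subunit sets. Python 3.11.15, numpy 2.4.6 and pandas 2.3.3 were used.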

Additional observations from a re-analysis of the deposited data

How the results depend on the processing

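No paired analysis was possible because both libraries of a group are in 1 table, and for the same reason no library could be left out. A changed minimum decides only which genes are compared, so 81 ratios with no minimum and 69 with one 4 times higher could not move. Of 879 ratios of single enzymes recomputed under other settings, these included, 873 moved by less than 1.5-fold. The sign differed in 65, of which 53 had a reported value under 0.1 in size, and in 7 the reported value was 0.25 or more in size: from the first 100 coding bins RPIA and DLD in treated cells and RPE and IDH3B in the edited line, and from the last 100 PGLS and IDH3G in the edited line and ENO2 in treated cells. Among values past 1.5-fold the sign changed for ENO2, AZC_MG132 vs parental, at 0.0855 from the last 100 coding bins, scaled to the depth of all rows in those bins. The median log2 ratio over the enzymes stayed within 0.1 of its value in each comparison under the settings tried. In the treated cells the number of enzymes 1.5-fold or more higher was 1 from coding bins alone, 3 from the first 100 coding bins, 1 from the last 100 and 1 without the 10 highest bins, and the number lower was 1 without the 10 highest bins and 1 with a minimum 4 times higher. In the edited line the number higher was 2 from coding bins alone, 3 from the first 100, 3 from the last 100 and 2 without the 10 highest bins. Past 2-fold in that line were 2 higher from the last 100 coding bins, and 1 lower from the first 100, the last 100, without the 10 highest bins and with no minimum. The median 5′ shift of treated cells was 0.68 with the first 40 coding bins and 0.66 without the first 4, and that of the edited line 0.0554 without the first 4. Of 84 values of coding depth per kilobase, 25 moved by more than 1.5-fold when the rows of a gene were summed or its 10 highest bins left out. The cause of these differences was not tested. The number of distinct fragments is unknown, so low rows such as RPIA, RPE and ALDOC carry an unknown counting error.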
